A study of Bos taurus with 20 samples.

Results

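The small leucine-rich proteoglycans of the extracellular matrix were followed in the endometrium of 10 cows. The genes were decorin (DCN), biglycan (BGN), asporin (ASPN), lumican (LUM), fibromodulin (FMOD), keratocan (KERA), the proline and arginine rich protein PRELP, osteoglycin (OGN) and epiphycan (EPYC). They were found by the gene name in the array design, which gave 25 probes for the 9 genes among 43653 probes. Of these, 24 probes of 8 genes passed the filter on dim probes and entered the comparison, which covered 19444 genes. The probe of EPYC was too dim to enter.

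Each cow was biopsied late, 343 to 436 days after calving (388.9 ± 27.5, mean ± SD, n = 10), and early, 42 to 86 days after calving (60.1 ± 13.3, mean ± SD, n = 10). Forceps were used on day 7 after oestrus, in the horn next to the ovary with the corpus luteum, and no treatment separated the groups. Every late biopsy followed the early one of the same cow, so age and order of sampling cannot be told apart from the interval after calving. A forceps biopsy takes a mixture of epithelium, stroma, vessels and blood.

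Proteins of this family have a core of leucine-rich repeats that binds collagen fibrils, and most carry chondroitin, dermatan or keratan sulphate chains. They limit the lateral fusion of fibrils, and several bind growth factors such as transforming growth factor beta. In the uterus they belong mainly to the stroma, whose matrix is remodelled after calving. DCN, BGN and ASPN belong to one class of the family, LUM, FMOD, KERA and PRELP to another, and OGN and EPYC to a further one.

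The members lie in few places of the genome. In coordinates of HGSC Btau_3.1, the build the file headers give, probes of EPYC, KERA, LUM and DCN follow one another on chromosome 5, from the EPYC probe at chr5:23552752-23552811 to the DCN probe nearest the 5′ end at chr5:23762515-23762574, all on the minus strand as the design lists them. OGN and ASPN lie near each other on chromosome 8, with the ASPN probe at chr8:88236176-88236235. FMOD, at chr16:111438-111497, and PRELP share chromosome 16, and BGN is on chromosome X. A probe is named below by the base of the transcript at which the design says it starts.

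Probes of the front and middle parts of the transcripts are printed here, because several genes were measured both there and near the 3′ end and the agreement of the probes is part of the result. Each has 60 bases, written 5′ to 3′ as in the scanner files. The DCN probes at bases 415 and 540 span 11923 and 6715 bases of the genome and the PRELP probe at base 980 spans 2998, so each of them crosses an intron. Capitals mark a final run of 8 A in the BGN probe at base 107, whose listed genomic span is 57 bases.
DCN base 415: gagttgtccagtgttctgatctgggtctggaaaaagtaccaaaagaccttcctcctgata
DCN base 540: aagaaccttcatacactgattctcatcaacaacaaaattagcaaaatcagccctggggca
DCN base 1001: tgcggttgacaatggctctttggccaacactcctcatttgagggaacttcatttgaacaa
LUM base 661: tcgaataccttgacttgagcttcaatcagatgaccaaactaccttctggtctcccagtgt
KERA base 628: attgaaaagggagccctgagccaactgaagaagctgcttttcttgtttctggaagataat
OGN base 493: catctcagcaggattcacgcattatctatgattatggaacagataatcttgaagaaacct
BGN base 107: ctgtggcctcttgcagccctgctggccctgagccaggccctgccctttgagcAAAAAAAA
BGN base 467: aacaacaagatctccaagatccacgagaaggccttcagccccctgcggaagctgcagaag
PRELP base 31: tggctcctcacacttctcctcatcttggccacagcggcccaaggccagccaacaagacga
PRELP base 980: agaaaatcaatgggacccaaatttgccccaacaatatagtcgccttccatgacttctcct

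Levels are log2 processed signals minus the 75th percentile of the array, so a level of 0 is that percentile. A level belongs to its probe and is not set against that of another probe. On each array 71.8% to 80.2% of the noncontrol spots passed the scanner's test for being well above background and none was saturated, and precision is limited by how many arrays there were. The early arrays of cows 4 and 9 were the least like their group, with correlations over genes of 0.949 and 0.975 with the group's mean, and values without them are given where they matter. The 20 arrays lay on 5 slides. Slides 1 and 2 held early arrays, slides 4 and 5 held late arrays, and slide 3 held the late arrays of cows 1 and 2 with the early arrays of cows 9 and 10.

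The comparison asks whether a cow's proteoglycan transcripts are at another level late than early. None of the 8 passed an adjusted p of 0.05 over all genes (limma with cow as a block, Benjamini-Hochberg), while 1.31% of all genes did, 0.535% higher and 0.777% lower late. The estimates of 7 members were negative, with a median change of -0.22 on the log2 scale, against 47.1% of all genes negative and a median of 0.02. Without adjustment 1 member, LUM, had a p under 0.05 and was lower, against 22.6% of all genes in either direction and 10.2% lower. In biopsies of whole tissue, fewer cells that make a transcript and less transcript per cell cannot be told apart.

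**Figure D1:**
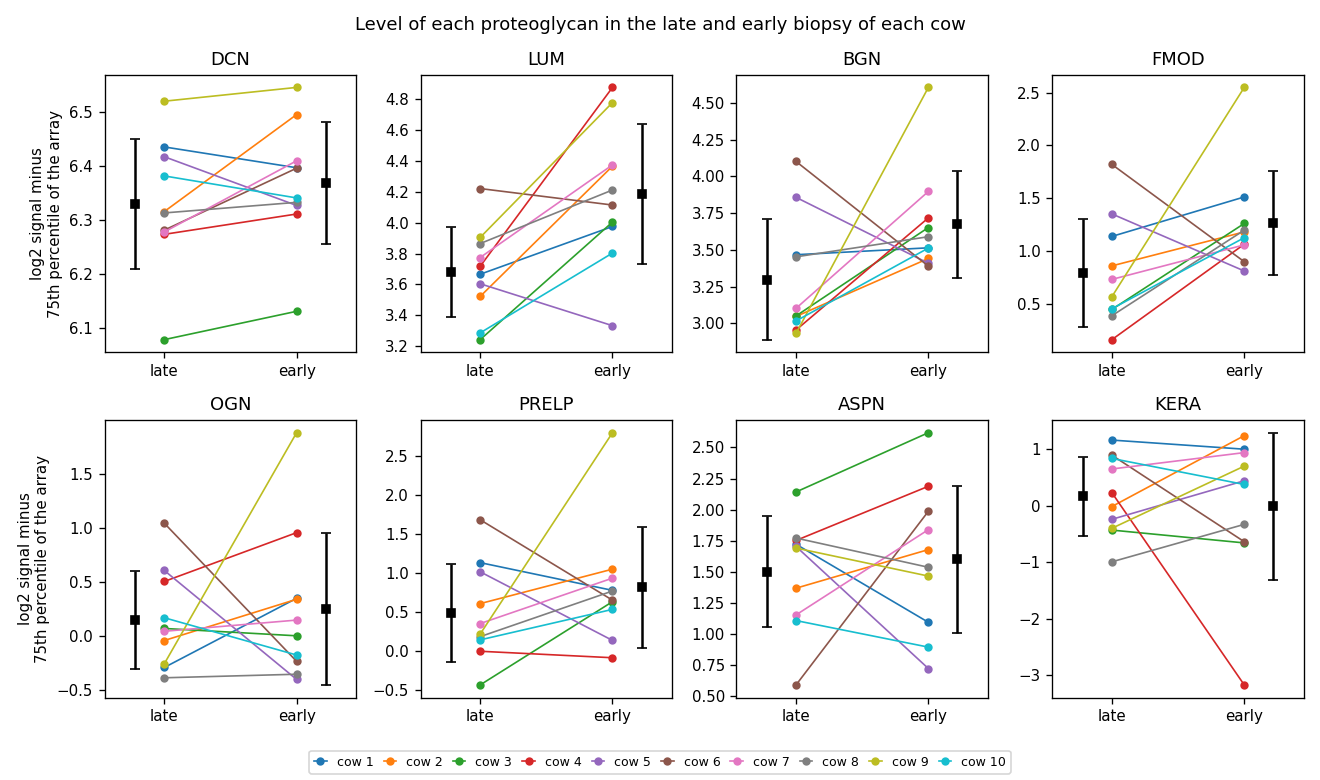
Log2 signal minus the 75th percentile of the array for the 8 proteoglycan genes that entered the comparison, at the probe of highest mean, in the late (left) and early (right) biopsy of each cow. LUM was lower late in 8 of 10 cows, DCN at base 1307 hardly varied, cow 9 had the highest early level of BGN, FMOD, OGN and PRELP, and cow 4 had the lowest early level of KERA.

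DCN, which binds collagen and transforming growth factor beta, was measured by 9 probes. At the probe of highest mean, at base 1307, the lowest, median and highest levels were 6.08, 6.31 and 6.52 in late biopsies, against 6.13, 6.37 and 6.54 in early biopsies. The groups overlapped almost wholly. The change was -0.04 ± 0.06 on the log2 scale (SE, n = 10 cows, limma adjusted p = 0.700), with a 95% interval from -0.16 to 0.08.

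The other 8 probes of DCN varied more, and together. They start at bases 87, 415, 540, 1001, 1177, 1415, 1734 and 1996. The probe at base 1415 has a listed genomic span of 13 bases. The changes at the 9 probes ranged from -0.15 to -0.04, with limma adjusted p between 0.344 and 0.865 over all probes, of which 1.13% were called. The SD of the 10 within-cow differences was 0.187 to 0.385 at these 8 probes and 0.084 at base 1307. At base 1001, whose sequence is printed above, the difference was 0.32 in cow 6, -0.41 in cow 4 and -0.37 in cow 9. At base 1307 the same cows had -0.11, -0.04 and -0.03.

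Each probe was also set against the mean of the gene's other probes over the 10 cows. The 8 probes of DCN had Pearson correlations from 0.758 to 0.992 and Spearman correlations from 0.624 to 0.964 (permutation test, adjusted p of Pearson's r from 0.00011 to 0.0134 over 22 such relations of all members). Leaving out the 2 cows in which the mean of the other probes was farthest from its median gave 0.793 to 0.993. The probe at base 1307 had a Pearson correlation of 0.143 (Spearman 0.139, permutation adjusted p = 0.693), and 0.606 without cows 3 and 6. The probes of a gene share their arrays, so these relations describe agreement on the same RNA.

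Brightness moved with this spread. Only 134 of 33763 probes were brighter than DCN base 1307. The 203 probes with a mean level of 6 or more had a median SD of within-cow differences of 0.138, against 0.273 for the 869 probes between 4 and 6 and 0.291 for the 3315 between 2 and 4. The part of brightness in the small spread of DCN was not tested. With the mean of its probes in place of the brightest, the change of DCN was -0.09 ± 0.08 (SE, n = 10, limma adjusted p = 0.546).

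**Figure D2:**
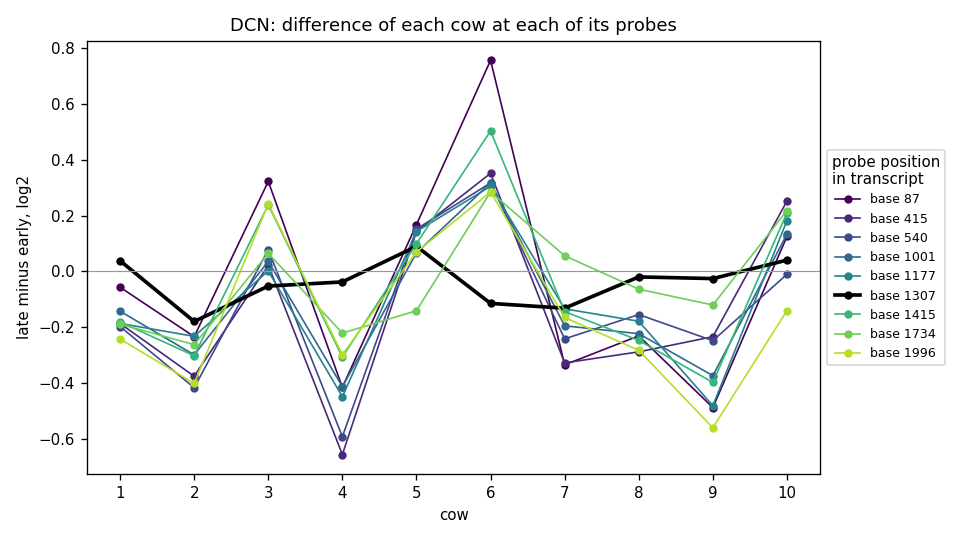
Late minus early log2 difference of DCN in each of the 10 cows, with 1 line per probe, named by its start in the transcript. The probe of highest mean, at base 1307, stayed between -0.18 and 0.09, and the other 8 lines were above 0 in cow 6 and below 0 in cows 4 and 9.

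BGN, a close relative of DCN that can also signal through Toll-like receptors when released from the matrix, had 3 probes. At base 2057 its lowest, median and highest levels were 2.93, 3.08 and 4.10 late, against 3.39, 3.55 and 4.61 early. Of the late arrays, 6 lay below every early array, but those of cows 5 and 6 stood at 3.86 and 4.10, among the upper early values. The change was -0.37 ± 0.20 (SE, n = 10, limma adjusted p = 0.280), with the late level lower in 8 of 10 cows. It was -0.23 without cow 9, whose own difference was -1.67, and -0.16 without cows 4 and 9.

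The other 2 BGN probes, both printed above, had smaller estimates, -0.06 at base 107 (limma adjusted p = 0.741 over probes) and -0.18 at base 467 (limma adjusted p = 0.439). At base 107 the late level was lower in 3 cows and higher in 7, and at base 467 it was lower in 6 and higher in 4. The probe that ends in the run of A agreed less with the rest of the gene. Its differences had a Pearson correlation of 0.449 with the mean of the other BGN probes (Spearman 0.261, permutation adjusted p = 0.200, and 0.133 without cows 6 and 9), against 0.902 at base 467 (Spearman 0.794, permutation adjusted p = 0.00102, and 0.761 without cows 3 and 9).

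ASPN, a class member named for its run of aspartate residues that binds collagen and calcium, had 1 probe. Its lowest, median and highest levels were 0.59, 1.70 and 2.14 late, against 0.72, 1.61 and 2.62 early. The late level was lower in 5 cows and higher in 5. The change was -0.10 ± 0.20 (SE, n = 10, limma adjusted p = 0.787). It was 0.042 without cow 6, whose difference of -1.40 was the most negative.

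LUM, which spaces collagen fibrils in the cornea and other connective tissues, had the smallest adjusted p of the 8. At base 1510 its lowest, median and highest levels were 3.24, 3.69 and 4.22 late, against 3.33, 4.16 and 4.88 early. The groups overlapped, with 4 early arrays above every late array and 2 late arrays below every early one. The late level was 1.42-fold lower (95% interval 1.15 to 1.74), a log2 change of -0.50 ± 0.14 (SE, n = 10, limma p = 0.00318, adjusted p = 0.0802), which did not pass the threshold. It was lower in 8 of 10 cows, and cows 5 and 6 had differences of 0.27 and 0.11. Of all genes, 3.95% had a smaller p.

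The LUM probe at base 661, printed above, had levels of 1.14, 1.61 and 2.21 late (lowest, median and highest), against 1.21, 2.01 and 2.61 early. Its change was -0.39 ± 0.16 (SE, n = 10, limma p = 0.0311, adjusted p = 0.171 over probes). The differences at the 2 probes had a Pearson correlation of 0.908 over the 10 cows (Spearman 0.867, permutation adjusted p = 0.000542, and 0.830 without cows 5 and 6). With 1 cow left out at a time the change at base 1510 lay between -0.59 and -0.43 and its adjusted p between 0.0536 and 0.150. Without both cows 4 and 9 the change was smaller, -0.37 ± 0.13 (SE, limma adjusted p = 0.155).

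Slide nearly coincided with the period. Within slide 3, where late and early arrays came from different cows, the change of LUM was -0.70 ± 0.39 (SE, 2 late and 2 early arrays, limma adjusted p = 0.660). With slide as a fixed block beside cow it was 0.35 ± 0.45 (SE, limma adjusted p = 0.9999), opposite in sign, and no gene of 19440 was called, with 366 at an unadjusted p under 0.05. With slide as a random block it was -0.51 ± 0.14 (SE, limma adjusted p = 0.125). The part of slide in the result was not tested.

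**Figure D3:**
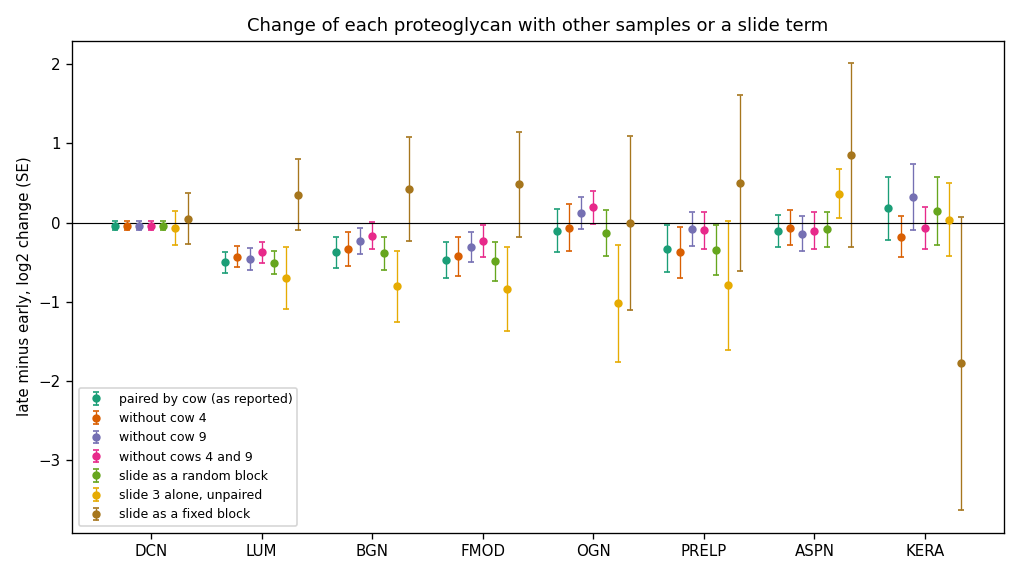
Late minus early log2 change of each proteoglycan with its SE, as reported and with other samples or a slide term. The fixed slide block gave wide intervals and turned the sign of 7 genes, and without cows 4 and 9 OGN and KERA also turned.

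FMOD, a keratan sulphate proteoglycan that shares a collagen binding site with LUM, had 1 probe. Its lowest, median and highest levels were 0.16, 0.65 and 1.82 late, against 0.81, 1.15 and 2.55 early. As for BGN, 6 late arrays lay below every early one, while cow 6 had 1.82 late and 0.90 early. The change was -0.47 ± 0.23 (SE, n = 10, limma adjusted p = 0.247), lower late in 8 of 10 cows. It was -0.31 without cow 9, whose difference was -1.98, and -0.23 without cows 4 and 9.

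PRELP, which anchors basement membranes to connective tissue, had 3 probes. At base 3645 its lowest, median and highest levels were -0.43, 0.29 and 1.68 late, against -0.08, 0.71 and 2.79 early. The early array of cow 9 stood at 2.79, with the next early array at 1.05. The change was -0.33 ± 0.30 (SE, n = 10, limma adjusted p = 0.522), and -0.08 without cow 9. The probes at bases 31 and 980 had estimates of -0.07 and 0.05, and the one at base 980 was well above background on 9 late and 8 early arrays. The late level was lower in 6 cows at base 3645, 4 at base 31 and 3 at base 980. Against the mean of the others the 3 probes had Pearson correlations of 0.823 to 0.901 (Spearman 0.564 to 0.818, permutation adjusted p from 0.00138 to 0.00798). Leaving out the 2 cows farthest from the median of that mean gave 0.404 to 0.620.

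KERA, best known as a proteoglycan of the cornea, was well above background at all 3 probes on all 20 arrays. At base 2045 its lowest, median and highest levels were -0.99, 0.11 and 1.16 late, against -3.17, 0.41 and 1.24 early. The early array of cow 4 was lowest at each probe, with -5.51 at base 628, -4.07 at base 1322 and -3.17 at base 2045, where the next early array had -0.66. The change was 0.18 ± 0.40 (SE, n = 10, limma adjusted p = 0.814), and -0.18 without cow 4, opposite in sign. The differences at the 3 probes had Pearson correlations of 0.989 to 0.998 with the mean of the others (Spearman 0.939 to 0.988, permutation adjusted p = 7.33e-05 each, the raw p being the smallest that the permutations can give), and 0.935 to 0.994 without cows 4 and 6.

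OGN, also named mimecan, had levels at base 2019 of -0.39, 0.05 and 1.04 late (lowest, median and highest), against -0.40, 0.07 and 1.88 early. The change was -0.11 ± 0.27 (SE, n = 10, limma adjusted p = 0.841), and 0.12 without cow 9, whose difference was -2.14. The probe of OGN at base 493 had differences with a Pearson correlation of 0.987 with those at base 2019 (Spearman 0.976, permutation adjusted p = 0.000157, and 0.947 without cows 6 and 9).

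EPYC, a proteoglycan of growth plate cartilage, was well above background on 4 late arrays and 1 early array. Its levels ran from -8.29 to -6.40 late and from -8.06 to -5.35 early, the highest being the early array of cow 9. EPYC was left out of the late against early comparison. It entered only the alternative fit with no filter, whose estimate for it is not given.

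**Figure D4:**
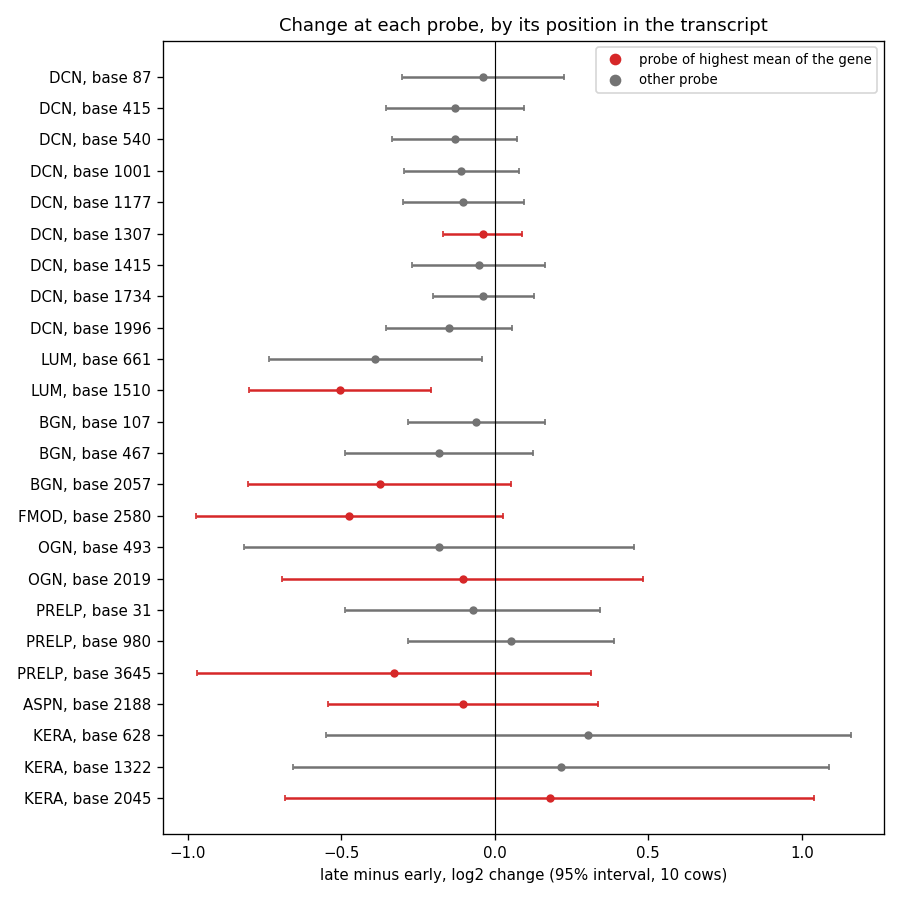
Late minus early log2 change with its 95% interval (10 cows, limma with cow as a block) at each of the 24 probes that entered. The LUM intervals end below 0 before adjustment, and those of the other 22 probes include 0.

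Of the 24 probes, 20 had a negative change, among them the 9 of DCN, which read the same RNA. The median change over all probes was -0.016. None of the 24 passed after adjustment over all probes, of which 0.776% were called lower. At an unadjusted p under 0.05 there were 2, both of LUM, and 13.4% of all probes were lower at that level.

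The members differed in which cows moved. In cow 9, 7 of 8 members were lower late, with a mean difference of -1.27. In cows 5 and 6, 1 and 2 of 8 were lower, with means of 0.44 and 0.51. Among those lower in cow 6 was DCN at base 1307, and with DCN taken as the mean of its other 8 probes, which were higher by 0.28 to 0.76 in that cow, 1 of 8 was lower. In the other cows the means lay between -0.52 and -0.02. Cows 5 and 6 had the same pair of slides. Cows 9 and 10 also shared theirs, and their means were -1.27 and -0.13.

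**Figure D5:**
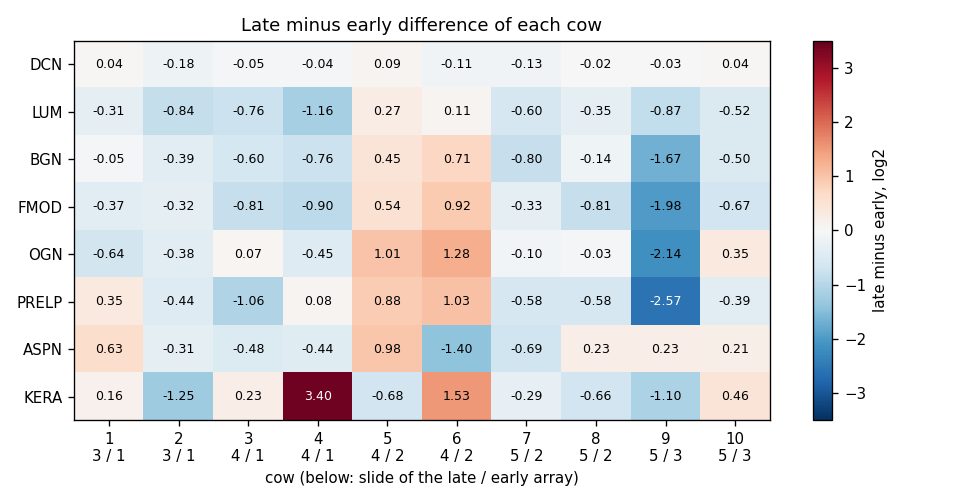
Late minus early log2 difference of each proteoglycan (rows) in each cow (columns), with the slides of the late and early array under the cow. Cow 9 has the most negative differences of BGN, FMOD, OGN and PRELP, at -2.57 to -1.67, cows 5 and 6 the positive ones of LUM, BGN and FMOD, and KERA in cow 4 stands at 3.40.

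By Pearson's correlation over all 10 cows, though not by Spearman's, BGN, FMOD, OGN and PRELP moved together, and LUM with BGN and FMOD. Over the 28 pairs of the 8 genes, the Pearson correlations of the 10 within-cow differences ran from -0.438 to 0.919, with a median of 0.221. By a permutation test 9 pairs passed an adjusted p of 0.05, all positive, and by Spearman's correlation none did. The highest was BGN with FMOD (Pearson 0.919, Spearman 0.733, permutation adjusted p = 0.00877 and 0.140), which was 0.719 without cows 6 and 9, the 2 farthest from the median of BGN. BGN with PRELP had 0.901 (Spearman 0.745, permutation adjusted p = 0.00877 and 0.140, and 0.692 without cows 6 and 9). LUM with BGN had 0.827 (Spearman 0.842, permutation adjusted p = 0.0142 and 0.0988, and 0.601 without cows 5 and 6). The 2 cows left out were chosen by 1 gene of a pair, so extreme cows of the other gene could stay in. That gene was BGN with FMOD and PRELP, and LUM with BGN, FMOD and KERA. It was OGN with PRELP, and DCN in the pairs of DCN.

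The size of these relations leaned on few cows. OGN with PRELP had 0.811 and was 0.274 without cows 6 and 9, and LUM with FMOD had 0.768 and was 0.379 without cows 5 and 6. Without cows 4 and 9, 4 pairs passed the exact permutation test, each at an adjusted p of 0.0326, namely LUM with BGN (0.894), LUM with PRELP (0.892), BGN with PRELP (0.911) and FMOD with PRELP (0.899). The relations of DCN depended on the probe. At base 1307 it passed with ASPN alone (Pearson 0.795, Spearman 0.794, permutation adjusted p = 0.0251 and 0.125, and 0.869 without cows 2 and 5). With the mean of the other 8 probes, chosen after seeing the data, DCN with ASPN had -0.257 (Spearman -0.224, permutation adjusted p = 0.700 and 0.652, and 0.566 without cows 3 and 6), and from -0.497 to -0.026 at single probes. In that setting DCN passed with OGN (Pearson 0.792, Spearman 0.794, permutation adjusted p = 0.0193 and 0.118, and 0.732 without cows 3 and 6). With BGN it had 0.669 (Spearman 0.552, permutation adjusted p = 0.0717 and 0.243, and 0.590 without cows 3 and 6), against 0.139 at base 1307. KERA passed with no member, and with its neighbour on chromosome 5, LUM, it had -0.195 (Spearman 0.030, permutation adjusted p = 0.861 and 0.947, and -0.453 without cows 5 and 6). Without cows 4 and 9 the relation of KERA with LUM was 0.332 (exact permutation adjusted p = 0.661), opposite in sign. Slides hold 2 to 4 arrays of a period, too few cows to give these correlations within a slide.

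The level of a member in the late biopsy was also set against that in the early biopsy of the same cow, over 8 relations. None passed. DCN at base 1307 had a Pearson correlation of 0.739 (Spearman 0.564, permutation p = 0.0216 and adjusted p = 0.173), which was -0.142 without cows 3 and 9. With the mean of its other 8 probes it was 0.314 (Spearman 0.309, permutation adjusted p = 0.687, and -0.243 without cows 9 and 10), below the 0.346 of LUM. The lowest was BGN, at -0.530 (Spearman -0.648, permutation p = 0.106 and adjusted p = 0.424), and -0.681 without cows 7 and 9. The median of the 8 was 0.02.

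Within each period the level was set against the day of sampling. No member had an unadjusted p under 0.05 in either period (limma slopes, 10 arrays each), and over all genes 0% were called in both, with unadjusted p under 0.05 in 1.38% late and 5.66% early. In late biopsies the slopes of the members ran from -0.01 to 0.06 per 10 days. In early biopsies LUM had a slope of -0.19 ± 0.10 (SE, n = 10, limma adjusted p = 0.911), ASPN one of -0.21 ± 0.13 and KERA one of 0.51 ± 0.26 per 10 days. With 1 cow left out the early slope of KERA lay between 0.29, without cow 4, and 0.80 (unadjusted p = 0.0386, limma adjusted p = 0.950, at a slope of 0.63 without cow 9), that of LUM between -0.25 and -0.065, and that of ASPN between -0.26 and -0.10.

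The genes whose 10 differences were most like the mean difference of the 8 members were LDB2 (Pearson 0.980 over 10 cows), RUSC2 (0.968), GPM6B (0.961), SCN4B (0.959) and NTF3 (0.959). They were chosen for this likeness, so no test is given. Without cows 6 and 9 the correlations were 0.954, 0.892, 0.880, 0.881 and 0.855. None of the 5 passed the late against early comparison, with changes from -0.30 to -0.03.

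Other genes of the pathway were read from lists. Of 9 further small leucine-rich proteoglycans 4 were tested and none passed, with a median change of -0.24. ECM2, a matrix protein with leucine-rich repeats, had -0.41 ± 0.13 (SE, n = 10, limma adjusted p = 0.107), and CHAD, chondroadherin of cartilage, had -0.35 ± 0.26 (adjusted p = 0.441). Of the enzymes that build chondroitin and dermatan sulphate chains, 16 of 22 were tested and none passed, with a median of -0.19. Among them DSE, the epimerase that makes dermatan sulphate, had -0.61 ± 0.25 (limma adjusted p = 0.180) and CHST14, which sulphates it, had -0.31 ± 0.12 (limma adjusted p = 0.153).

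Enzymes of keratan sulphate, the chain of LUM, FMOD and KERA, were all tested, and none of the 9 passed. Their median was 0.10. FUT8, which adds core fucose to N-glycans, had 0.14 ± 0.07 (SE, n = 10, limma adjusted p = 0.273) and was higher late in 10 of 10 cows, and CHST4, a sulphotransferase, had 1.58 ± 0.91 (limma adjusted p = 0.318). CHST4 was well above background on 10 late and 7 early arrays at this probe, and its probe that was so on all 20 arrays had a change of -0.0027 (limma adjusted p = 0.993).

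The collagens that these proteoglycans bind gave negative estimates in 8 of 8 genes tested, out of 11 listed, with a median of -0.25 and none past the threshold. COL6A1, a chain of beaded filament collagen, had -0.26 ± 0.10 (SE, n = 10, limma adjusted p = 0.167), and COL12A1, a fibril-associated collagen, had -0.59 ± 0.26 (limma adjusted p = 0.207).

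Of 17 growth factors and receptors bound by the family, 15 were tested, and 1 fell and none rose. It was BMP4, a bone morphogenetic protein, which averaged 0.11 ± 0.32 late and 0.63 ± 0.32 early (SD, n = 10 each) and was lower late in 10 of 10 cows (change -0.52 ± 0.11 SE, limma adjusted p = 0.0463). BMP4 lay at the edge of the threshold and passed under 9 of 25 alternatives, with 1 cow left out in 1 of 10, and not with slide as a fixed block (change -0.14 ± 0.42 SE, limma adjusted p = 0.9999) or a random one (adjusted p = 0.0819). Of 11 proteases 6 were tested, with a median of -0.62 and none past the threshold. MMP2, a gelatinase, had -0.58 ± 0.13 (SE, n = 10, limma adjusted p = 0.0553) and its membrane activator MMP14 had -0.92 ± 0.24 (limma adjusted p = 0.0770). Of 15 other matrix proteoglycans and hyaluronan genes 11 were tested and none passed. HAPLN3, a link protein, had -0.37 ± 0.09 (SE, n = 10, limma adjusted p = 0.0661), and VCAN, the large proteoglycan versican, had -0.50 ± 0.23 (limma adjusted p = 0.226).

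Markers of the cells in a biopsy moved in some of the same cows. Of 12 stromal fibroblast markers 11 were tested, with a median change of -0.44, and 1 fell, HAND2, a transcription factor of uterine stroma (-0.87 ± 0.18 SE, n = 10, limma adjusted p = 0.0455). HAND2 passed under 10 of 25 alternatives, with 1 cow left out in 1 of 10, and had an adjusted p of 0.9999 with slide as a fixed block and 0.0781 with a random one (limma). The summed level of that list ran from 87.8 to 139 late and from 106 to 182 early, as multiples of the 75th percentile. Of 10 smooth muscle markers none passed, with a median of -0.07 (CALD1 -0.31 ± 0.12 SE, limma adjusted p = 0.153, and DES 0.34 ± 0.24 SE, adjusted p = 0.423) and sums of 61.7 to 111 late and 59.1 to 167 early. Of 12 epithelium markers 11 were tested and none passed, with a median of 0.33 (KRT18 0.42 ± 0.17 SE, limma adjusted p = 0.181, and CLDN3 0.62 ± 0.26 SE, adjusted p = 0.189) and sums of 61.4 to 115 late and 26.5 to 89.9 early. Of the 11 epithelium markers tested, 2 had a negative estimate. Each tested marker exceeded background clearly on 8 or more arrays.

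In cow 9 the mean log2 level of the markers changed by -1.75 for fibroblasts, -1.39 for smooth muscle and 1.35 for epithelium, and its early array was the highest of 20 for the first 2 lists and the lowest for epithelium. In cow 6 the changes were 0.19, 0.98 and 0.03, and in cow 5 they were 0.17, 0.81 and -0.26. In cow 4 they were -1.003, -0.956 and 0.206. Their part in the differences of the proteoglycans was not tested.

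Of 11 macrophage markers, all tested, 5 fell, with a median change of -0.85. The 4 of smallest p were GPNMB, a glycoprotein of lipid-laden macrophages (-2.94 ± 0.30 SE, n = 10, limma adjusted p = 0.00413), VSIG4, a complement receptor (-1.47 ± 0.16 SE, limma adjusted p = 0.00413), CD68, a lysosomal protein (-1.79 ± 0.22 SE, limma adjusted p = 0.00553), and MSR1, a scavenger receptor (-0.85 ± 0.13 SE, limma adjusted p = 0.0181). Each was lower late in 10 of 10 cows, and with slide as a fixed block none of them, nor NKG7 below, passed (limma adjusted p = 0.9999, with changes of -2.59 to -0.84). Of 12 lymphocyte and leukocyte markers 11 were tested and 1 fell, NKG7 of cytotoxic cells (-1.20 ± 0.19 SE, n = 10, limma adjusted p = 0.0262), which passed with 1 cow left out in 6 of 10. The median change of that list was -0.18, and 9 of its 11 estimates were negative. Of 10 endothelium markers 9 were tested, and of 9 red blood cell markers 6, and none passed, with medians of -0.15 and 0.41. Estimates were negative in 6 of the 9 endothelium markers and 1 of the 6 red blood cell markers. The smallest p belonged to ENG (-0.31 ± 0.14 SE, n = 10, limma adjusted p = 0.210) and CDH5 (-0.29 ± 0.13 SE, adjusted p = 0.226) of endothelium, and EPB42 of red blood cells had 1.17 ± 0.26 (SE, adjusted p = 0.0520). Their part in the proteoglycan levels was not tested.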

How the data were processed

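RNA of 20 biopsies of 10 cows was measured on 20 single-colour Agilent bovine arrays, labelled with Cy3 per the labels' protocols. Agilent Feature Extraction 10.5.1.1 read the images, per the file headers, and its background-subtracted processed signals are the deposited intensity values used here. The deposited log2 value table of the authors matched the log2 signals scaled to the 75th percentile of each array and centred by probe, with a lowest correlation of 0.99997, and served as an alternative.

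Spots that were controls or marked as outliers were dropped, and repeated spots were averaged. Probes had to exceed background clearly on 8 or more of 20 arrays, and the probe of highest mean stood for its gene. A RefSeq table of another assembly gave gene names, by accession first, and nothing else. Of 43653 probes, 10529 kept the name of the array design. The fit was made with limma 3.58.1 under R 4.3.3 (moderated test, two-sided) with cow as a fixed block, p-values were adjusted over all genes by Benjamini-Hochberg with a threshold of 0.05, and the code was tested on simulated data. Correlations used 100000 permutations (scipy 1.17.1).

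Titles and animal numbers pair the 2 biopsies of a cow, although the source names of late samples carry other cow numbers. The correlation of the late and early deviations of a cow from the group means was -0.11 to 0.76, and over 0.1 in 8 of 10 cows. Replicates are cows.

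The members and lists were chosen with earlier results of these data known. The text names every member and probe, from each list up to 4 called genes of smallest p or else 2 genes of smallest p, and the 5 genes most like the members' mean difference. A gene that this rule names is not reported here. Alternatives covered background, scaling, filter, probe choice, variance, blocks, slide and left-out cows. No genome, promoter or protein sequence was used here.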

Additional observations from a re-analysis of the deposited data

Results flagged for a closer look

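In 18 groups of 10 arrays, for 9 genes in 2 periods, 5 had a sample set far from the others, where chance gives about 1 in 20 groups. Of these, 4 were the early array of cow 9, which stood above the other early arrays for BGN (4.61, next 3.90), FMOD (2.55, next 1.51), PRELP (2.79, next 1.05) and EPYC (-5.35, next -6.97). The fifth was the early array of cow 4, which stood below the other early arrays for KERA (-3.17, next -0.66). The probe of EPYC was well above background on only 1 early array. The 9 genes share these arrays, so the flags are not independent.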

How the results depend on the processing

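No member passed under any of the alternatives run. The count of genes called, 255 with cow as a fixed block, was 119 with no replicate block, 718 with cow as a random block, 114 with no filter, 35 with slide as a random block, and 0 both with slide as a fixed block and within slide 3 alone (limma, with 366 and 1722 genes at an unadjusted p under 0.05). With 1 cow left out it lay between 35 and 152. The fixed slide block and slide 3 alone leave few degrees of freedom, and the cause of the other shifts was not tested. With no replicate block LUM had an adjusted p of 0.132, and with cow as a random block 0.0549. The share of called genes that were higher late was 53.3% with normexp, 51.6% with quantile normalization and 50.6% with median scaling, against 40.8% as reported. With slide as a fixed block the sign turned for LUM (0.35), BGN (0.42), ASPN (0.85), KERA (-1.78), PRELP (0.50), FMOD (0.48) and DCN (0.045), and for the list genes ENG (0.62), COL12A1 (0.75), CHAD (1.24), CHST14 (0.17), HAPLN3 (0.28), CLDN3 (-0.34), MMP14 (0.43), VCAN (1.07), MMP2 (0.38) and COL6A1 (0.41). Within slide 3 it turned for ASPN (0.36), CHAD (0.31), HAPLN3 (0.12), FUT8 (-0.034), EPB42 (-0.70) and DES (-0.72). CHST4 was -0.0027 with the filter on all 20 arrays, which left another probe, and DES was -0.082 with the mean of its probes. Without cow 4 KERA was -0.18, without cow 6 ASPN was 0.042 and without cow 9 OGN was 0.12. Without cows 4 and 9 KERA was -0.064 and OGN 0.19. Over the left-out cows ASPN ranged from -0.22 to 0.042, KERA from -0.18 to 0.34 and OGN from -0.26 to 0.12. With the mean of its probes BGN was -0.21 and PRELP -0.12. With 1 cow left out, early day trends gave 0 to 1 genes, the 1 without cow 10, and late ones 0. Of the pairs of members, 4 passed without cows 4 and 9, against 9 as reported, and 9 with DCN as the mean of its other probes, an alternative chosen after seeing the data. For EPYC and the dim probes of PRELP, signal over background limits what can be said.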

Other observations

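A probe that the array design describes as mimecan, the other name of OGN, but lists under the cluster name TC301638 was not counted among the OGN probes. It averaged -3.56 ± 0.43 late and -3.70 ± 0.87 early (SD, n = 10 each), a change of 0.14 ± 0.34 (SE, limma adjusted p = 0.823).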
